A study of Mus musculus with 14 samples.

Results

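The genes described here move, sense and store iron, and they are 9 of the 28022 genes in the deposited count matrix. They were taken by name, by a rule that uses no measured value, although earlier results of these data were known when they were chosen. They are Trf (transferrin, the iron carrier of plasma), Tfrc (transferrin receptor 1, which takes iron-loaded transferrin into cells), Slc11a2 (DMT1, which carries ferrous iron across membranes), Tfr2 and Hfe (membrane proteins through which hepatocytes sense iron), Hamp (hepcidin, the hormone that sets systemic iron), Fth1 (the ferritin heavy chain, which stores iron), Slc40a1 (ferroportin, the exporter of iron from cells) and Cp (ceruloplasmin, the plasma ferroxidase that oxidises exported iron). All 9 were found in the matrix. RNA was sequenced from 14 libraries of C57BL/6J mouse cells or liver, with 2 libraries in each of 7 conditions. Fib were mouse embryonic fibroblasts, the kind of cell from which the hepatic cells were made. 2D-iHepSC were hepatic stem-like cells, converted from such fibroblasts by lentiviral Oct4 and Hnf4α and grown as a monolayer. 2D-iHepSCiEC were the same cells in a monolayer with induced endothelial cells, which had been converted from a human fibroblast line with ETV2. 3D-iHA was taken to be the study's organoids (iHLO), though the text of the study does not use the name 3D-iHA. These organoids were spheroids of the hepatic cells alone in a gel of Matrigel and type I collagen. 3D-iHEA were such spheroids with the endothelial cells in the gel (the study's assembloids, iHEA). All 4 hepatic cultures were kept in the same mixed hepatic and endothelial medium with oncostatin M. Adult-Liver and Fetal-Liver were whole tissue from adult and from mid-gestation mice. The labels do not say that libraries of a condition came from separate cultures or animals, so p-values measure the spread between these libraries, which may be technical.

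Hepatocytes are the main source of plasma transferrin, hepcidin and ceruloplasmin, and the liver is the main store of iron in ferritin. Hepcidin leaves the liver and causes ferroportin to be internalised and degraded, so the hormone and the exporter act against each other at the protein level. Inside cells, iron-regulatory proteins bind hairpins in mRNA called iron-responsive elements when iron is low. Such binding blocks translation when the hairpin is in a 5′ UTR and stabilises the mRNA when it is in the 3′ UTR, so part of the control of these genes cannot be seen in mRNA levels. In the fetus the liver is the site of red cell production, and erythroid precursors take up iron mainly through Tfrc.

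In GRCm38 (GENCODE M21), Trf lies at chr9:103204001-103230444 on the minus strand, Tfrc at chr16:32608920-32632794 on the plus strand and Slc11a2 at chr15:100387898-100425072 on the minus strand. Tfr2 lies at chr5:137569840-137587481 on the plus strand, Hfe at chr13:23702034-23710854 on the minus strand and Hamp at chr7:30942368-30944032 on the minus strand. Fth1 lies at chr19:9980598-9985098 on the plus strand, Slc40a1 at chr1:45908068-45926523 on the minus strand and Cp at chr3:19957054-20009145 on the plus strand. The 9 genes lie on 9 different chromosomes.

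The hairpins are shown because they are the sites that iron-regulatory proteins bind. GENCODE M21 transcripts (GRCm38) were searched for the loop CAGTGN with A, C or T in its last position, closed by a stem of 5 base pairs (G with T allowed) with an unpaired C before the stem. Of the 9 members 3 held such a hairpin, against 222 of 21877 protein-coding genes (1.01%). Ftl1, the ferritin light chain, is shown beside Fth1. Each stretch of 29 bases is on the sense strand, with the 6 bases of the loop in capitals.
Slc40a1 5′ UTR, chr1:45925465-45925493, minus strand: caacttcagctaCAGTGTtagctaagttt
Fth1 5′ UTR, chr19:9982732-9982760, plus strand: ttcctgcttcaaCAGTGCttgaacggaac
Ftl1 5′ UTR, chr7:45459779-45459807, minus strand: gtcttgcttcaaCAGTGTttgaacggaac
Tfrc 3′ UTR, chr16:32631219-32631247, plus strand: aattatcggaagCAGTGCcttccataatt
Tfrc 3′ UTR, chr16:32631598-32631626, plus strand: cattatcgggagCAGTGTcttccataatg
Tfrc 3′ UTR, chr16:32631663-32631691, plus strand: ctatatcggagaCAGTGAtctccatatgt
Tfrc 3′ UTR, chr16:32631710-32631738, plus strand: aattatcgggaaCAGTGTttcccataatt
The ferritin and ferroportin hairpins lay in the 5′ UTR and the 4 Tfrc hairpins in the 3′ UTR. Slc11a2 did not hold these letters, which says nothing of other forms of the hairpin.

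The Hamp promoter is shown because, of the members, Hamp differed most between Adult-Liver and 3D-iHA. RefSeq promoter sequences (GRCm38.p6, 250 bases before to 50 after the start) were present for 6 of the 9 members. They were searched on both strands for GGCGCC (the core of the element that BMP-activated SMAD proteins bind), TTCNNNGAA (the pattern that STAT proteins bind), CACGTG (an E-box) and TGACNNNGC (the antioxidant response element). In capitals are GGCGCC, which began 109 bases before the start, and TTCTTGGAA, which began 97 bases before it.
Hamp promoter, chr7:30944040-30944179, minus strand: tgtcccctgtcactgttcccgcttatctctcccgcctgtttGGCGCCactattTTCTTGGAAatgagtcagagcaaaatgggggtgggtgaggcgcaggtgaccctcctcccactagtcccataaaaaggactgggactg
GGCGCC was in 11.9% of all 32851 promoters and, of the members, in those of Hamp and Tfrc. TTCNNNGAA was in 8.30% of all promoters and, of the members, in that of Hamp. TGACNNNGC was in 12.4% of all promoters and in that of Hfe, and CACGTG was in 7.15% and in no member.

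Libraries held 20851489 to 35143325 counts. Levels are given as CPM, the count divided by the library size and multiplied by 1000000, with library sizes scaled by trimmed means (TMM). Adult-Liver differs most in composition: plain totals would lower its log2 levels by 1.21 and raise those of the other conditions by 0.15 to 0.25, so small differences from Adult-Liver turn on the scaling. The summed level of 10 hepatocyte markers was 663 to 1089 CPM in the hepatic cultures, 11685 to 14759 in Fetal-Liver and 572449 to 611487 in Adult-Liver. Alb was counted 2 to 210 times per culture library against 8113083 and 7888792 times in the adult libraries, so the cultures lacked the defining marker at liver levels. Fibroblast markers summed to 26098 to 27651 CPM in Fib and 4.82 to 5.28 in 2D-iHepSC. Serpina1a and Cyp2e1 were at 0 in 2D-iHepSCiEC, 3D-iHA and 3D-iHEA. The methods of the study give the adult mice of its qRT-PCR as male and state no sex in the section on sequencing. Both Adult-Liver libraries held Xist counts (14646 and 16368) and a Ddx3y count of 0. Ddx3y, a Y-linked gene, had 885 and 151 counts in the Fetal-Liver libraries and Xist 18478 and 26694, so the 2 libraries differed in their sex-linked counts. In Fib, Ddx3y had 200 and 152 counts and Xist 93134 and 73323, while in all 8 hepatic culture libraries Ddx3y was at 0 and Xist at 34 to 165, so Fib and the converted cells differed in these genes too. The libraries of Fetal-Liver and of 3D-iHEA differed more from each other (chi-square of 12.7 and 10.9 per gene) than those of the other 5 conditions (2.93 to 3.49). 3D-iHEA library 1 had 2063 counts of Hp against 223 in the other, which carried no usable replicate number.

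Trf, Cp and Hamp, whose products are secreted into plasma, were far higher in Adult-Liver than in any culture, while in Fetal-Liver only Trf was above the cultures. Trf was at 834 and 944 CPM in the Adult-Liver libraries and at 43.2 and 48.4 CPM in Fetal-Liver. It was at 1.87 and 1.98 CPM in 3D-iHA, 2.96 and 1.37 in 3D-iHEA, 0.601 and 0.248 in 2D-iHepSCiEC and 0.218 and 0.366 in 2D-iHepSC, and no read was counted in Fib (floor 0.0898 CPM at 3 counts per library). The order ran from adult to fetal liver, then 3D, then 2D, and within 3D and within 2D the neighbours overlapped. Cp was at 9348 and 9214 CPM in Adult-Liver, 652 and 639 in 3D-iHA, 599 and 568 in 3D-iHEA, 286 and 264 in Fib, 156 and 168 in 2D-iHepSCiEC, 109 and 107 in 2D-iHepSC, and 4.68 and 2.95 in Fetal-Liver. No neighbours in the order of Cp overlapped, and the fibroblasts stood above both monolayers. Cp shares its locus with Hps3 on the opposite strand, and whether counting used strand was not given in the sources used here.

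Hamp was at 689 and 702 CPM in Adult-Liver, from 10134 and 10766 counts. Elsewhere it had at most 23 counts in a library: 23 and 11 in 2D-iHepSC, 5 and 7 in 2D-iHepSCiEC, 21 and 15 in 3D-iHA, 11 and 4 in 3D-iHEA, 8 and 5 in Fetal-Liver, and 1 and 0 in Fib. The culture and fetal values lay between 0.125 and 0.626 CPM and mostly overlapped. Hamp2, the near-identical neighbouring gene, had 17099 counts in Adult-Liver against 20900 of Hamp, a ratio of 0.818, and 2 against 34 in 2D-iHepSC, a ratio of 0.0588. How reads that match both genes were counted is not known, so the split between the pair is uncertain. 2D-iHepSC library 1 also held more Alb (210 counts against 9) and Cyp2e1 (19 against 0) than library 2. Its Hamp count was 0.220% of the adult mean, its Alb count 0.00262% and its Cyp2e1 count 0.0155%.

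The sensors Tfr2 and Hfe were highest in Adult-Liver. Tfr2 was at 1066 and 1112 CPM in Adult-Liver, 93.0 and 82.4 in Fetal-Liver, 68.5 and 64.6 in 3D-iHEA, 69.3 and 62.1 in 3D-iHA, 16.9 and 14.3 in 2D-iHepSCiEC, 9.91 and 12.3 in 2D-iHepSC, and 0.327 and 0.490 in Fib. Its order matched that of Trf, with an overlap only between the 2 kinds of 3D culture. Hfe was at 112 and 106 CPM in Adult-Liver, 16.1 and 14.3 in 2D-iHepSCiEC, 14.3 and 13.3 in 2D-iHepSC, 9.74 and 9.19 in Fetal-Liver, 9.03 and 9.22 in 3D-iHA, 9.34 and 8.03 in 3D-iHEA, and 1.34 and 1.63 in Fib. Unlike Tfr2, it was lower in 3D than in the monolayers, and Fetal-Liver overlapped 3D-iHA.

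The uptake genes were highest in Fetal-Liver. Tfrc was at 1200 and 1031 CPM in Fetal-Liver, 185 and 164 in Adult-Liver, 68.6 and 65.9 in 3D-iHA, 64.5 and 68.9 in 3D-iHEA, 51.5 and 50.7 in 2D-iHepSC, 40.3 and 44.6 in 2D-iHepSCiEC, and 19.6 and 16.7 in Fib. Slc11a2 was at 112 and 104 CPM in Fetal-Liver and at 47.9 and 53.5 in Adult-Liver. In the cultures it was at 40.9 and 41.8 CPM in 3D-iHEA, 40.4 and 41.7 in 3D-iHA, 35.2 and 34.3 in 2D-iHepSCiEC, 33.7 and 34.6 in 2D-iHepSC, and 35.1 and 35.5 in Fib. Tfrc overlapped between the 3D cultures alone. By TMM, Slc11a2 varied least of the members, with its highest condition mean 3.16 times its lowest, but by total counts Fth1 (571 to 2538 CPM) varied less than Slc11a2 (22.0 to 125 CPM). In Slc11a2 the fibroblasts overlapped 2D-iHepSCiEC. By total counts without TMM, Tfrc in Adult-Liver (75.5 CPM) came below both 3D cultures (78.7 and 79.5), and Slc11a2 in Adult-Liver (22.0 CPM) below all other conditions.

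The storage and export genes ranked the conditions differently. Fth1 was at 2448 and 2369 CPM in Adult-Liver, 2220 and 2197 in 2D-iHepSCiEC, 2163 and 2132 in 2D-iHepSC, 1802 and 1737 in 3D-iHA, 1817 and 1606 in 3D-iHEA, 1741 and 1598 in Fetal-Liver, and 529 and 501 in Fib. The 3D cultures overlapped each other and Fetal-Liver. By total counts the place of Adult-Liver changed from the highest (2408 CPM) to below all conditions but Fib (1043 CPM). Slc40a1 was at 427 and 402 CPM in Adult-Liver, 156 and 126 in Fetal-Liver, 32.9 and 34 in 2D-iHepSCiEC, 28.6 and 26.6 in 2D-iHepSC, 15 and 14.2 in Fib, 13.2 and 12.5 in 3D-iHEA, and 6.86 and 6.24 in 3D-iHA. Its neighbours did not overlap anywhere in the order, and both 3D cultures lay below the fibroblasts.

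**Figure D1:**
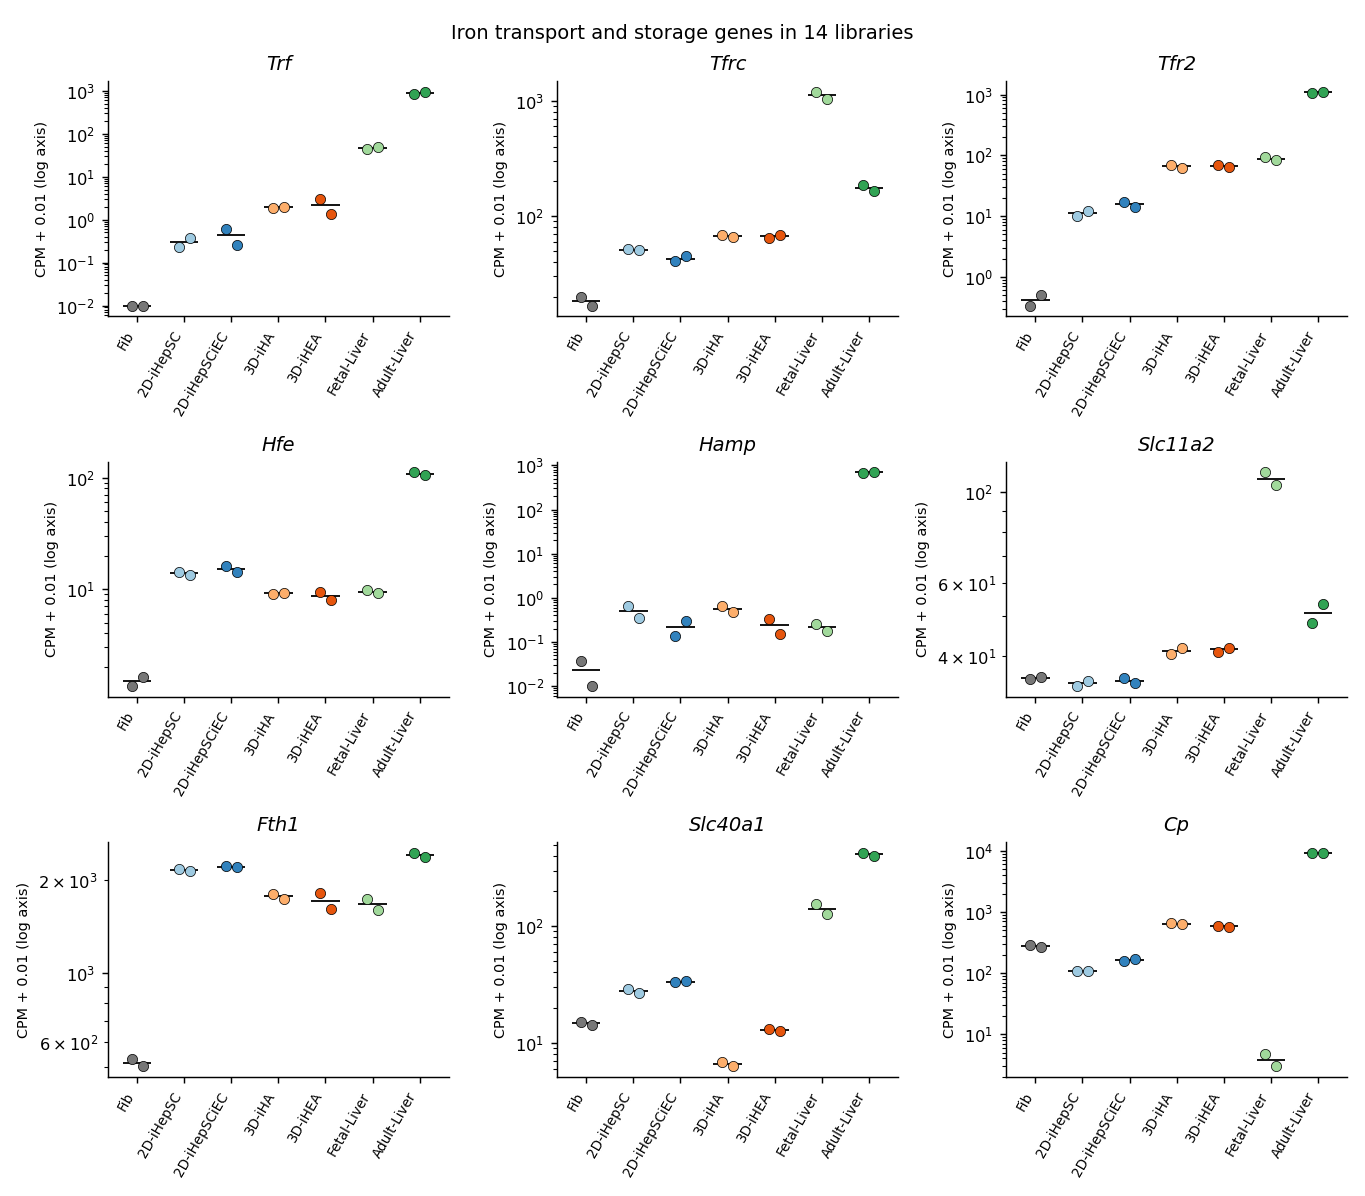
Level of each of the 9 genes in each library, as CPM plus 0.01 on a log axis whose range differs between panels; points are libraries (2 per condition) and bars are condition means. Trf, Tfr2 and Cp step up from the 2D to the 3D cultures, while Slc40a1 drops to its lowest mean, 6.55 CPM, in 3D-iHA.

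Divided by exon length (CPM per kb), the balance between the genes differed between conditions. Fth1 led in every condition except Adult-Liver, where Hamp stood at 1696 CPM per kb, Fth1 at 1488 and Cp at 1457. The receptors changed places: Tfrc over Tfr2 was 29.4 in Fib, 3.04 in 2D-iHepSC and 1.80 in 2D-iHepSCiEC on the per-kb scale, and Tfr2 over Tfrc was 1.48 in 3D-iHA, 1.51 in 3D-iHEA and 9.45 in Adult-Liver. Fetal-Liver went the other way, with Tfrc over Tfr2 at 8.39. The exporter Slc40a1 over the importer Slc11a2 was 1.46 in 2D-iHepSC, 0.289 in 3D-iHA, 0.562 in 3D-iHEA and 14.8 in Adult-Liver. These are ratios of condition means over 2 libraries, and that of the receptors in Fib rests on 12 and 15 counts of Tfr2.

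**Figure D2:**
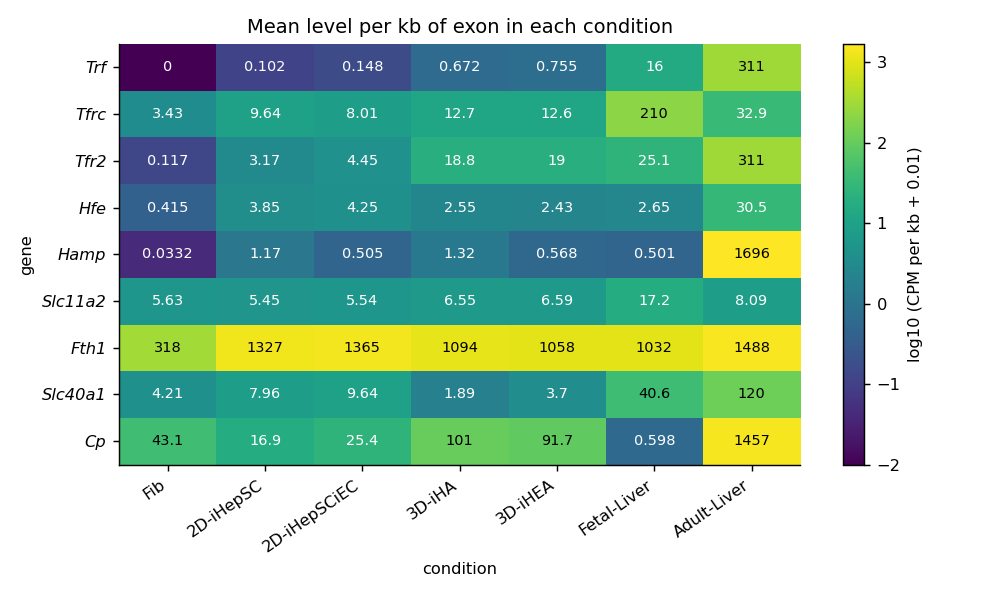
Condition means in CPM per kb of exon for the 9 genes (rows) in 7 conditions (columns), with colour on a log10 scale and the value in each cell. Fth1 holds values from 1032 to 1488 in all conditions but Fib (318), and the Hamp row is bright in Adult-Liver alone.

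Whether 3D culture changed these genes was tested with the 4 libraries of 3D culture against the 4 of 2D culture. The only term was 3D or 2D, so the SD, SE and p-values include differences between cultures with and without endothelial cells. Trf, Tfr2 and Cp rose about as much as each other, Tfrc and Slc11a2 rose less, and Slc40a1, Hfe and Fth1 fell. In all, 5 members rose, 3 fell and 1 did not pass (edgeR quasi-likelihood test, Benjamini-Hochberg adjusted p below 0.05), where 75.9% of the 13409 genes tested passed (38.7% higher and 37.2% lower), so the count of members is near the background. The median log2 fold change of the members was 0.30, against 0.01 for all genes tested. By size, Trf, Tfr2 and Cp were at the 93.1, 92.2 and 91.4 percentile of absolute log2 fold change over all genes, Slc40a1 at the 86.3 percentile and Slc11a2 and Fth1 at the 36.2 and 35 percentile.

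Trf was at 0.358 ± 0.174 CPM in 2D and 2.04 ± 0.664 in 3D (SD, n = 4), a log2 fold change of 2.50 (SE 0.33, adjusted p = 3.01e-05). Tfr2 went from 13.3 ± 2.97 to 66.1 ± 3.36 CPM, a 5.09-fold difference (log2 2.35, SE 0.13, adjusted p = 1.44e-08). Cp went from 135 ± 31.7 to 615 ± 38.1 CPM, a 4.68-fold difference (log2 2.23, SE 0.14, adjusted p = 6.12e-08). For each of the 3 plasma or sensing genes, every 3D library was above every 2D library. Slc40a1 went from 30.5 ± 3.50 to 9.70 ± 3.65 CPM, a 3.07-fold fall (log2 -1.62, SE 0.21, adjusted p = 2.63e-05), with 3D libraries between 6.24 and 13.2 and 2D libraries between 26.6 and 34. Hfe fell from 14.5 ± 1.17 to 8.91 ± 0.597 CPM (log2 -0.66, SE 0.08, adjusted p = 1.06e-05), so the sensors Tfr2 and Hfe moved in opposite directions. Among the genes with hairpins, Tfrc rose from 46.8 ± 5.31 to 67.0 ± 2.12 CPM (log2 0.56, SE 0.07, adjusted p = 2.27e-05). Fth1 fell from 2178 ± 38.4 to 1740 ± 96.3 CPM (log2 -0.29, SE 0.05, adjusted p = 0.000136). Slc11a2 rose by 0.30 (SE 0.04, adjusted p = 2.57e-05), from 34.4 ± 0.616 to 41.2 ± 0.681 CPM. Hamp did not pass: 0.344 ± 0.209 CPM in 2D and 0.386 ± 0.205 in 3D, with a 95% interval of its log2 difference from -0.86 to 1.31 (adjusted p = 0.687), wide because of its few counts.

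The same 8 members passed, in the same directions, within cultures without endothelial cells (3D-iHA against 2D-iHepSC, 72.3% of genes called, 36.9% higher and 35.3% lower) and with them (3D-iHEA against 2D-iHepSCiEC, 70.9% called, 36.0% higher and 34.9% lower). The Slc40a1 difference was -2.03 (SE 0.08) without and -1.34 (SE 0.07) with endothelial cells, and that of Cp 2.63 (SE 0.06) and 1.88 (SE 0.05). In 3D the 6 proliferation markers tested all fell, from a summed 1182 to 1284 CPM in 2D to 303 to 349 in 3D, and 5 of 6 endothelial markers tested rose, from 407 to 475 CPM to 866 to 1340, although 2 of the culture conditions held no endothelial cells. Of 6 hepatocyte markers tested, Ttr (5.37), Tat and Apob (0.99) rose, Ass1 (-0.42) fell, and Alb and Apoa1 did not pass. Tat was at 15.9 CPM in 3D-iHEA library 1 and 1.28 to 2.17 in the other 3D libraries. Of 6 cholangiocyte markers Epcam (4.37) and Krt7 (0.23) rose and Sox9 (-1.55) and Krt19 (-0.25) fell, and of 4 fibroblast markers Pdgfra (3.04) rose and Col1a1 (-2.65) and Twist1 (-1.33) fell. Of 2 tested markers each, Afp (-0.83) fell and H19 (2.00) rose among the fetal hepatic, Klf1 (1.41) rose and Ermap (-1.30) fell among the erythroid, and Csf1r (-0.96) fell among the macrophage markers. The part of any of these in the changes of the members was not tested.

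**Figure D3:**
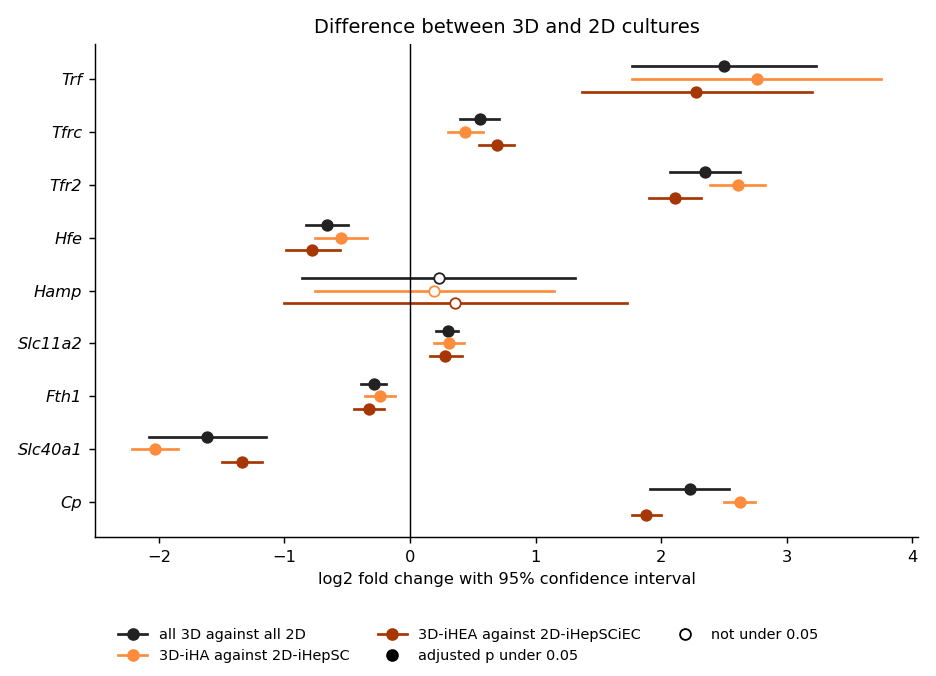
Log2 fold change of each gene in 3D against 2D culture with its 95% confidence interval, for all cultures and for those without and with endothelial cells; filled points passed at an adjusted p of 0.05. Trf, Tfr2 and Cp lie between 1.88 and 2.76 in all 3 comparisons, Slc40a1 lies between -2.03 and -1.34, and the wide interval of Hamp crosses 0.

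The rest of the iron pathway was read from 8 lists of 83 genes in the matrix, of which 71 could be tested in the cultures: 28 rose in 3D, 33 fell and 10 did not pass, with a median log2 fold change of -0.08. Of the lists 85.9% passed, against 75.9% of all genes (38.7% higher and 37.2% lower). Of 5 tested genes of storage, ferritin turnover and iron chaperones, 4 fell and 1 rose, with a median of -0.47. Ftl1, the ferritin light chain, was at 1150 to 1312 CPM in 2D and 272 to 338 in 3D (log2 -1.95, SE 0.07, adjusted p = 5.99e-10). Ncoa4, the receptor that delivers ferritin to lysosomes, fell by 0.68 on the log2 scale (adjusted p = 5.45e-07), and Pcbp1, a chaperone that loads iron into ferritin, rose by 0.29 (adjusted p = 0.000155). Haem breakdown was split, with 4 of 9 tested genes of haem scavenging and breakdown higher, 4 lower and 1 not passing. Hmox1, haem oxygenase 1, went from 360 to 388 CPM in 2D to 77.4 to 123 in 3D (log2 -1.81, adjusted p = 4.88e-08), and the haemoglobin binder Hp rose by 4.11 (adjusted p = 0.000655), with 61.0 CPM in 3D-iHEA library 1 and 7.39 to 8.58 in the other 3D libraries.

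Of 8 tested genes of uptake without transferrin, reductases and siderophore carriers, 5 rose, 2 fell and 1 did not pass. Ltf, lactoferrin, went from 0.300 to 0.651 CPM in 2D to 1235 to 1775 in 3D (log2 11.59, SE 0.19, adjusted p = 4.14e-12), the furthest move in the pathway lists. Slc39a14, the ZIP14 importer of iron not bound to transferrin, rose by 0.67 (adjusted p = 1.59e-07), and the ferrireductase Steap2 fell by 2.28 on the log2 scale (adjusted p = 3.27e-09). Steap3, the ferrireductase of endosomes, was at 0.578 to 2.22 CPM in all hepatic cultures, with a difference of 0.04 (95% interval -0.82 to 0.90, adjusted p = 0.924). Among 4 tested genes of export oxidases and haem export, Heph, the membrane ferroxidase hephaestin, rose from 0.218 to 0.611 CPM in 2D to 8.43 to 21.4 in 3D (log2 5.27, adjusted p = 1.71e-07), and the haem exporter Abcg2 fell by 1.42 (adjusted p = 9.73e-05). The related ferroxidase Hephl1 did not pass (0.18, adjusted p = 0.557). The list around iron-responsive elements held the binding proteins, Fbxl5 and the hypoxia-inducible factors Hif1a and Epas1, and of its 5 genes 3 fell, 1 rose and 1 did not pass: Aco1 (IRP1) fell by 0.15 on the log2 scale, Ireb2 (IRP2) fell by 0.29, Fbxl5, which marks IRP2 for degradation, differed by -0.07 (adjusted p = 0.21), Hif1a fell by 0.18 and Epas1 (HIF2α) rose by 1.49.

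Of 19 tested genes of hepcidin regulation, 10 rose, 6 fell and 3 did not pass, with a median of 0.26. Erfe, erythroferrone, an inhibitor of BMP ligands, fell by 3.90 on the log2 scale (adjusted p = 2.72e-09) and Atoh8, a SMAD target, rose by 1.61 (adjusted p = 1.73e-05). Bmp6, the ligand that couples liver iron to hepcidin, was at 34.7 to 50.9 CPM in 2D and 22.0 to 24.9 in 3D (log2 -0.87, adjusted p = 1.36e-05). Hjv (hemojuvelin, the BMP co-receptor) and Tmprss6 (matriptase 2, which cleaves it) were too low to test in the cultures, with Hjv at 0 in 7 of the 8 libraries and Tmprss6 at 0.0296 to 0.281 CPM, against 128 and 130 CPM of Hjv and 1063 and 1042 CPM of Tmprss6 in Adult-Liver. Haem synthesis had 4 of 8 genes higher and 4 lower, between Alas1 (log2 1.00) and Cpox (-0.98). Mitochondrial iron and iron-sulfur cluster genes had 2 of 13 higher, 9 lower and 2 not passing, between Isca1 (0.28) and the mitochondrial iron importer Slc25a37 (-1.59).

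**Figure D4:**
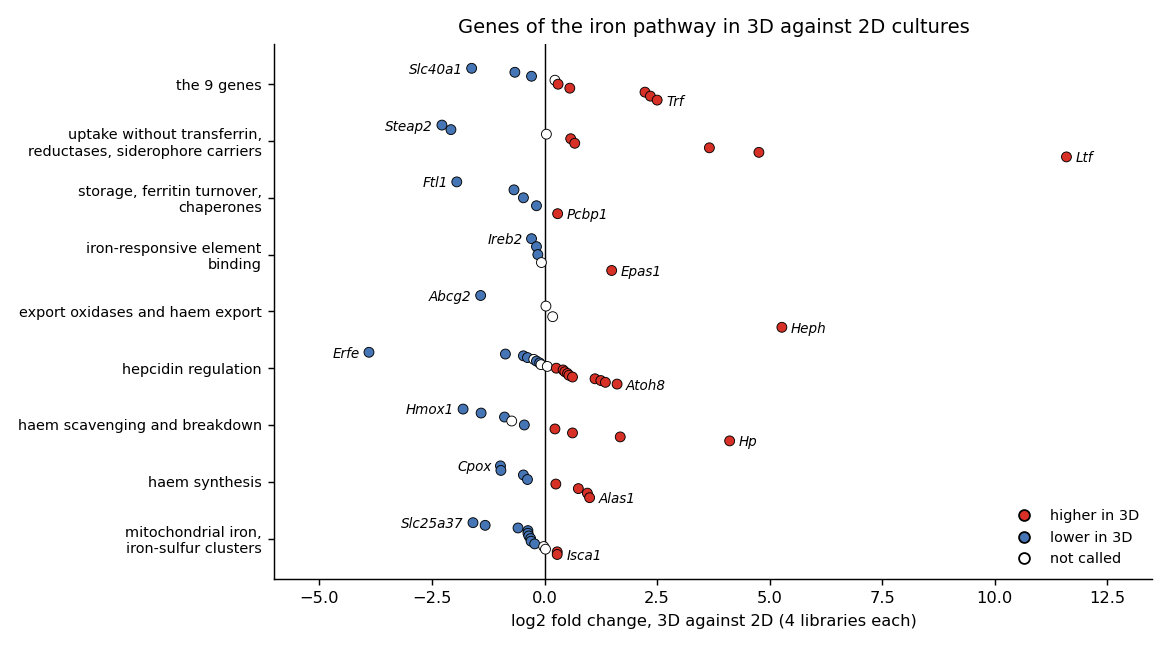
Log2 fold change in 3D against 2D culture of every tested gene, with the 9 genes in the top row and the 8 pathway lists below; red passed as higher, blue as lower, white did not pass, and the lowest and highest gene of each row is named. Ltf at 11.59 is far to the right and Ftl1 at -1.95 is the lowest storage gene.

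Whether endothelial cells changed the genes was tested separately in 2D and 3D. In the monolayer, Cp, Tfr2 and Slc40a1 rose and Tfrc fell, so 4 of the 9 members passed where 8.17% of genes did (4.26% higher and 3.92% lower). The values were a log2 fold change of 0.60 for Cp (SE 0.05, adjusted p = 4.88e-05), 0.52 for Tfr2 (SE 0.11, adjusted p = 0.0141), 0.29 for Slc40a1 (SE 0.07, adjusted p = 0.0222) and -0.26 for Tfrc (SE 0.07, adjusted p = 0.0313). Leaving out a library ended some of these calls: Tfr2 without 2D-iHepSC replicate 1 was 0.36 (adjusted p = 0.177) and without 2D-iHepSCiEC replicate 1 was 0.39 (adjusted p = 0.228), Slc40a1 was 0.24 to 0.34 without any 1 of the 4 libraries (adjusted p = 0.0916 to 0.184), and Tfrc passed in 1 of the 4 cases, without 2D-iHepSCiEC replicate 2. Cp kept its call in all 4. With all libraries kept, Slc40a1 also lost its call in the DESeq2 Wald test (0.29, adjusted p = 0.0726) and in the fit over all 14 libraries (0.28, adjusted p = 0.0788), where Tfrc lost its call too (-0.27, adjusted p = 0.0871). In the 3D cultures, Slc40a1 was the 1 member of 9 that passed, where 2.26% of genes did (1.19% higher and 1.07% lower). It was at 6.86 and 6.24 CPM in 3D-iHA and at 13.2 and 12.5 in 3D-iHEA, a 1.97-fold rise (log2 0.98, SE 0.09, adjusted p = 0.000156), which is at the 97.9 percentile of absolute change over all genes. Each 3D-iHEA library was above each 3D-iHA library, and the value was 0.91 to 1.05 over the 10 alternatives, with adjusted p from 9.11e-18 to 0.0046.

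The co-culture effect itself differed between 3D and 2D for 2 members, with 3.14% of genes called (1.52% higher and 1.62% lower). That of Slc40a1 was larger in 3D (difference of log2 fold changes 0.69, 95% interval 0.44 to 0.93, adjusted p = 0.00603), and that of Cp was smaller (-0.74, 95% interval -0.91 to -0.58, adjusted p = 0.000258). In 3D, Cp was 652 and 639 CPM without and 599 and 568 with endothelial cells (log2 -0.14, adjusted p = 0.243). For the other members the 95% interval of the 3D effect was -0.15 to 0.13 for Tfrc, -0.16 to 0.21 for Tfr2, -0.29 to 0.16 for Hfe, -0.16 to 0.08 for Fth1 and -0.11 to 0.14 for Slc11a2. Trf (-0.56 to 0.93) and Hamp (-2.27 to -0.05, adjusted p = 0.363) had too few counts for a narrow interval. Of the 71 tested genes of the 8 lists, 11.3% passed in 3D co-culture, 6 higher and 2 lower, against 2.26% of all genes. The 6 were Scara5 (1.59), Steap3 (1.42), Heph (0.97, adjusted p = 0.011), Steap1 (0.36), Steap2 (0.29) and Slc25a37 (0.20), and the 2 were Abcg2 (-0.52) and Epas1 (-0.27). The Scara5 value rests largely on 3D-iHEA library 1, at 55.1 CPM against 19.3 in the other 3D-iHEA library and 9.0 and 15.9 in 3D-iHA. Steap3 was at 2.22 CPM in 3D-iHEA library 1 and 1.30 in the other, against 0.742 and 0.578 in 3D-iHA. In 2D co-culture 19.7% passed, 8 higher and 6 lower, against 8.17% of all genes. Of the genes named above Erfe (0.47), Steap2 (0.32) and Slc25a37 (0.20) rose and Atoh8 (-0.96), Abcg2 (-0.81), Epas1 (-0.66) and Bmp6 (-0.40, adjusted p = 0.00361) fell. The endothelial cells were human, and in gene counts any of their reads that aligned to the mouse genome cannot be told apart from those of the mouse cells. Reads were aligned to the mouse genome, so human transcripts that did not align went uncounted and marker counts cannot measure the added cells. Mouse endothelial markers did not rise with co-culture. Their sum was 467 and 475 CPM in 2D-iHepSC and 407 and 420 in 2D-iHepSCiEC, and 1202 and 1340 in 3D-iHA and 866 and 932 in 3D-iHEA. Of the 6 tested, 3 were lower in each of the 2D and 3D comparisons. Of 4 tested fibroblast markers, Col1a1 rose in 2D co-culture (2.53 and 2.84 to 11.0 and 9.65 CPM) and fell in 3D (1.75 and 1.19 to 0.710 and 0.316 CPM). Of 6 cholangiocyte markers, Krt19 fell in 2D co-culture (log2 -0.31), and Epcam (0.58) and Sox9 (1.85) rose in 3D. Sox9 was at 4.82 CPM in 3D-iHEA library 1 and 2.10 in the other, against 0.921 and 1.03 in 3D-iHA. Of 6 hepatocyte markers, Alb (-5.20, with 210 and 9 counts in 2D-iHepSC against 3 and 2) and Ttr (-0.71) fell in 2D co-culture and Apoa1 (-0.42) in 3D, and the fetal hepatic marker Afp (-0.39) fell in 2D. Their part in the changes of Cp, Tfr2, Tfrc and Slc40a1 was not tested.

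**Figure D5:**
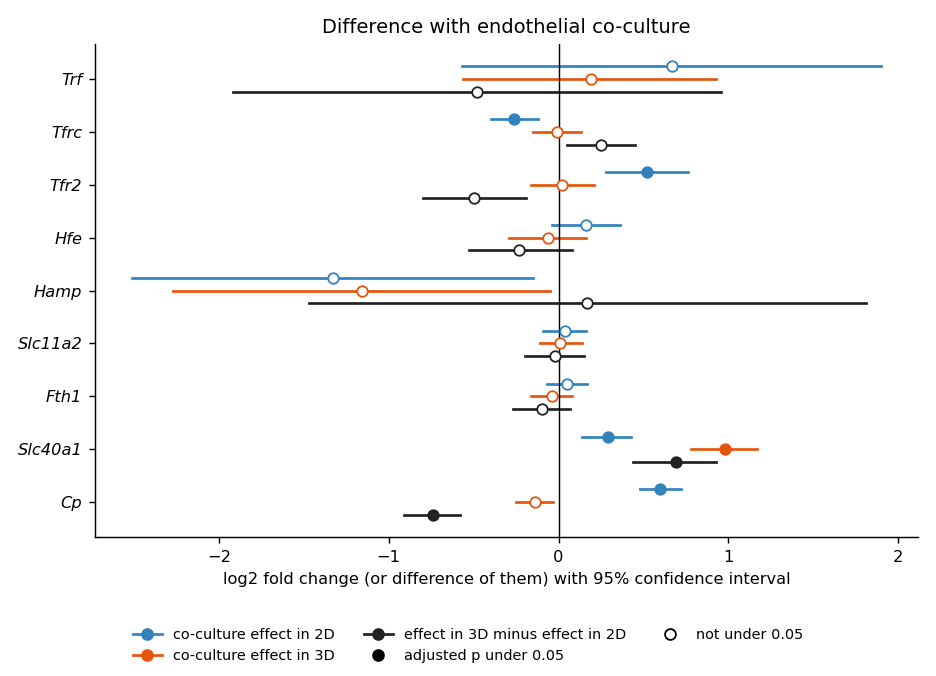
Log2 fold change with endothelial co-culture in 2D and in 3D, and the difference between the effects, each with its 95% confidence interval; filled points passed at an adjusted p of 0.05. Slc40a1 lies at 0.29 in 2D and 0.98 in 3D, and Cp at 0.60 in 2D and -0.14 in 3D.

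How the converted cells differ from fibroblasts was read from 2D-iHepSC against Fib. Of the 9 members 7 rose, Cp fell and Slc11a2 did not pass, where 83.9% of 14121 genes passed (45.7% higher and 38.2% lower), and the median log2 fold change was 2.05 (1.70 with Trf at its lower bound). Tfr2 rose 27.2-fold (log2 4.77, SE 0.23, adjusted p = 1.46e-11), from 12 and 15 counts to 364 and 403. Hfe rose 9.29-fold (log2 3.22, SE 0.13, adjusted p = 2.09e-12) and Fth1 4.15-fold (log2 2.05, SE 0.08, adjusted p = 1.16e-12). Tfrc rose by 1.48 on the log2 scale (SE 0.10, adjusted p = 7.78e-10) and Slc40a1 by 0.91 (SE 0.10, adjusted p = 3.9e-07). Trf, with 8 and 12 counts against 0 and 0, was at least 3.25-fold higher at a floor of 3 counts per library (adjusted p = 0.007). Hamp, with 34 counts against 1, had a ratio of 33.0 (95% exact counting interval 5.53 to 1339). Cp fell 2.56-fold, from 286 and 264 to 109 and 107 CPM (log2 -1.36, SE 0.10, adjusted p = 2.85e-09). Slc11a2 differed by -0.06 (95% interval -0.19 to 0.08, adjusted p = 0.422). With the members, 7 of 7 tested fibroblast markers fell and 5 of 6 proliferation markers rose (Ccnb1 most, 1.65). Of 9 hepatocyte markers 5 rose, Apob most (14.26, with 1 and 0 counts in Fib). Of 6 cholangiocyte markers 3 rose (Krt19 most, from 3.43 and 3.39 to 871 and 923 CPM) and 3 fell (Spp1 most, -4.63). Of 8 endothelial markers 4 rose (Cdh5 most, to 443 and 437 CPM) and 2 fell, and of 4 fetal hepatic markers Afp rose and 3 fell. Their part in the changes of the members was not tested.

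Around the members, 39 of 78 tested pathway genes rose and 31 fell, so 89.7% passed against 83.9% of all genes. The storage genes Ftl1 (log2 2.64) and Ncoa4 (2.07) rose with Fth1, and 3 of the 5 genes of their list rose, with Pcbp2 lowest at -0.13. In the list of uptake without transferrin, reductases and siderophore carriers, 5 of 11 rose, led by Steap1 (3.77), and 5 fell. The ferrireductase Steap3 fell most (-8.75), from 378 and 391 CPM in Fib to 0.872 and 0.916 in 2D-iHepSC. Slc39a14 rose by 0.25 and Ltf did not pass (1.67, adjusted p = 0.0791). Of 21 genes of hepcidin regulation 9 rose and 12 fell, between Bmp6 (5.25, from 1.20 and 1.40 to 48.4 and 50.9 CPM) and Smad9 (-6.25), and Tmprss6 fell by 2.00 on the log2 scale. Of the genes around iron-responsive elements, 2 of 5 rose and 2 fell, between Epas1 (2.54) and Hif1a (-1.17); Fbxl5 rose by 1.40, Ireb2 fell by 0.18 and Aco1 differed by -0.05. Haem scavenging and breakdown had 4 of 9 higher, led by Blvrb (1.63) with Hmox1 at 1.51, and 3 lower, led by Lrp1 (-4.75). Haem synthesis had 5 of 9 higher and 3 lower, between Cpox (2.78) and Uros (-1.43), and mitochondrial iron had 7 of 13 higher and 4 lower, between Slc25a37 (2.97) and Isca1 (-0.71). Of 5 export oxidases and haem exporters, 4 rose and Flvcr2 fell by 3.64; highest in the fit was Hephl1, which had no count in Fib and 0.708 and 1.01 CPM in 2D-iHepSC, and Heph reached 0.218 and 0.611 CPM.

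Between the liver stages all 9 members passed, where 83.7% of genes did (40.0% higher and 43.8% lower): 7 were higher in Adult-Liver, and the uptake genes Tfrc and Slc11a2 were higher in Fetal-Liver. Hamp and Cp differed most, with log2 fold changes of 11.71 (SE 0.15, adjusted p = 4.17e-18) and 11.26 (SE 0.15, adjusted p = 7.9e-18), at the 99.7 and 99.6 percentile of all genes. Trf was 19.8-fold higher in Adult-Liver (log2 4.31, SE 0.12), Tfr2 12.7-fold (3.66, SE 0.09) and Hfe 11.7-fold (3.55, SE 0.09). Tfrc was 6.27-fold lower (-2.65, SE 0.09, adjusted p = 1.19e-13) and Slc11a2 2.08-fold lower (-1.06, SE 0.06, adjusted p = 1.88e-10). Over the alternatives, which include scaling by total counts, these genes kept their direction but not their size. The log2 values ran from 2.86 to 4.46 for Trf, 2.21 to 3.78 for Tfr2 and 2.10 to 3.68 for Hfe. They ran from -4.10 to -2.50 for Tfrc and from -2.51 to -0.92 for Slc11a2. The smaller differences turn on the scaling: Fth1 was 0.56 higher by TMM and -0.89 by total counts, and Slc40a1 was 1.58 higher by TMM and 0.13 by total counts (adjusted p = 0.0975). In whole tissue, fewer cells of a type and less RNA per cell cannot be told apart. The 11 erythroid markers summed to 36744 and 38447 CPM in Fetal-Liver and 538 and 589 in Adult-Liver, and the 10 macrophage markers to 318 and 381 against 1885 and 2003. Of the markers tested, 6 of 6 proliferation, 4 of 4 fetal hepatic and 6 of 7 fibroblast markers were lower in Adult-Liver. There 9 of 9 hepatocyte markers and 1 fibroblast marker were higher. Of 8 endothelial markers 4 were higher and 1 lower, and of 6 cholangiocyte markers 1 was higher and 2 lower. The part of any of these in the changes of the members, Tfrc, Slc11a2 and Slc40a1 among them, was not tested.

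In the same comparison 37 of 78 tested pathway genes were higher in Adult-Liver and 33 lower, so 89.7% passed against 83.7% of all genes. Haem synthesis had 7 of 9 genes higher in Fetal-Liver, where the erythroid enzyme Alas2 was lowest in the adult (-3.54), while its housekeeping and hepatic counterpart Alas1 was higher in Adult-Liver (6.04). Of 13 mitochondrial genes 6 rose and 6 fell, between Fdx1 (4.00) and Slc25a37 (-4.95), the importer that feeds haem synthesis. Of 21 genes of hepcidin regulation 16 were higher in Adult-Liver and 3 lower, from Tmprss6 (5.08) to Erfe (-7.91), the hormone that erythroid precursors make, with Bmp6 at 2.28. Erfe had 1 and 0 counts in Adult-Liver, so the size of its value is uncertain. All 5 genes around iron-responsive elements were higher, Epas1 (3.52) and Aco1 (2.91) most, with Fbxl5 at 0.57 and Ireb2 at 0.21. Of 9 genes of haem scavenging and breakdown 5 were higher, led by Hp (9.18), and 3 lower, led by Blvrb (-1.89) with Hmox1 at -0.81. The list of uptake without transferrin, reductases and siderophore carriers had 3 of 11 higher, led by Steap4 (6.21) with Slc39a14 at 4.07. In it 7 were lower, led by Steap1 (-6.82, with 0 and 1 counts in Adult-Liver) with Steap3 at -2.12 and Ltf at -4.30. Storage had Ftl1 higher (1.40) and 3 of 5 lower, led by Ncoa4 (-0.84), and of 5 export oxidases and haem exporters 4 were lower, led by Flvcr1 (-1.50) with Heph at -1.45. The values of Ftl1, Hif1a (0.37), Fbxl5 and Ireb2 are smaller than the shift between scalings, so their direction, and the counts of list genes higher in Adult-Liver, depend on the scaling.

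Set against the livers, the cultures differed by member. In 3D-iHA against Adult-Liver all 9 members were lower, where 84.9% of genes passed (45.7% higher and 39.2% lower): Hamp by -10.36 (SE 0.13), Trf by -8.89 (SE 0.17), Slc40a1 by -6.03 (SE 0.11), Tfr2 by -4.10 (SE 0.09), Cp by -3.89 (SE 0.11), Hfe by -3.62 (SE 0.09), Tfrc by -1.42 (SE 0.09), Fth1 by -0.49 (SE 0.08) and Slc11a2 by -0.35 (SE 0.06). By total counts the last 3 turned to 0.06 (adjusted p = 0.504), 0.99 and 1.13, and the other 6 kept their direction. Of the markers tested by TMM, 7 of 7 macrophage, 7 of 9 erythroid, 9 of 9 hepatocyte and 6 of 7 fibroblast markers were lower in 3D-iHA. There 6 of 6 proliferation and 2 of 4 fetal hepatic markers were higher. Of 8 endothelial markers 3 were higher and 5 lower, and of 6 cholangiocyte markers 3 were higher and 3 lower. In 2D-iHepSC against Fetal-Liver all 9 passed, where 85.3% of genes did (42.0% higher and 43.3% lower): Cp (4.79), Hamp (1.21, adjusted p = 0.0234), Hfe (0.52) and Fth1 (0.35) were higher in the monolayer and Trf (-7.31), Tfrc (-4.47), Tfr2 (-3.0), Slc40a1 (-2.37) and Slc11a2 (-1.68) lower. The Hamp call rests on 34 against 13 counts and was lost without 2D-iHepSC replicate 1 (0.67, adjusted p = 0.287), without Fetal-Liver replicate 2 (0.98, adjusted p = 0.105) and with only the 4 libraries compared (adjusted p = 0.0523). Lower in 2D-iHepSC than in Fetal-Liver were 9 of 9 erythroid, 7 of 7 fibroblast, 4 of 4 fetal hepatic and 6 of 6 proliferation markers. So were 8 of 9 hepatocyte, 6 of 7 macrophage and 7 of 8 endothelial markers. Higher were 1 macrophage, 1 endothelial and 3 of 6 cholangiocyte markers, with 1 cholangiocyte marker lower. The part of the markers in the changes of the members was not tested in either comparison.

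The genes most like 3 members over the 7 condition means of log2 CPM were named by Pearson's r among 14120 genes, as a description over conditions that share their libraries. For Slc40a1 they were Aif1 (r = 0.997), Fdxr (0.984) and Mycl (0.981). Aif1, a gene of macrophages, was at 23.5 and 24.3 CPM in Adult-Liver and at 0.0297 to 0.949 in the hepatic cultures. For Trf they were Dpp4 (0.999), Sgk2 (0.998) and Cd36 (0.997), all at their highest in Adult-Liver. For Tfrc they were Mcoln2 (0.993), Mgst3 (0.992) and Ppat (0.989).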

How the data were processed

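RNA-seq was made from 14 libraries. Per the labels and the study's methods, the authors sequenced 150 bp read pairs, trimmed them with Trimmomatic 0.36, aligned them with HISAT2 to mm10 and counted genes with HTSeq; the annotation release, strand setting and handling of multi-mapped reads were not given in the sources used here. The deposited values are raw counts for 28022 gene symbols. The members and lists were chosen with earlier results of these data known. Counts were tested with edgeR 4.0.16 (quasi-likelihood test, R 4.3.3) on TMM library sizes, after a filter on low genes (the average of log2(count + 1) had to reach 3) in either the 8 culture libraries or all 14, with Benjamini-Hochberg adjustment over all genes tested and a threshold of 0.05. No library was dropped or imputed. On simulated counts the test was checked first. Named were the 9 members, 13 pathway genes fixed by name, the called gene of each list with the highest and lowest change in 3 comparisons, and 3 genes most like each of 3 members. Other list genes given for co-culture, and Hephl1 and Hif1a in 3D against 2D, were named after their values were seen. Alternatives were DESeq2 1.42.0, its size factors, other filters, other sets of libraries, a replicate block and each library left out; scaling by total counts was added after seeing the data. Intervals of fold changes are from the edgeR fits and include the spread between libraries, while floors and the interval of the Hamp ratio cover counting error only. Positions are from GENCODE M21 (GRCm38).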

Additional observations from a re-analysis of the deposited data

Results flagged for a closer look

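The effect of endothelial co-culture differed between 3D and 2D culture for 2 members, by the interaction term of the model fitted across all genes (edgeR quasi-likelihood test). For Slc40a1 the effect in 3D minus that in 2D was 0.69 on the log2 scale (adjusted p = 0.00603), from 0.29 in 2D and 0.98 in 3D. For Cp it was -0.74 (adjusted p = 0.000258), from 0.60 in 2D and -0.14 in 3D.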

How the results depend on the processing

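Of 1082 member values under the alternatives, 1053 kept their direction and their side of the threshold. Scaling by total counts, added after seeing the data, reversed Fth1 in Adult-Liver against Fetal-Liver (-0.89) and, in 3D-iHA against Adult-Liver, Tfrc (0.06), Slc11a2 (1.13) and Fth1 (0.99), so that 2 members were called higher there; Adult-Liver has by far the lowest TMM factors (0.429 and 0.438). For 2D-iHepSCiEC against 2D-iHepSC, the 1096 genes called became 1953 with the replicate block, 2020 in the same libraries without the block, and 257 to 429 without each library in turn; members called lower were 0 with total counts, with all 14 libraries and without some libraries, and members called higher went down to 1 without some. For 3D-iHEA against 3D-iHA, 303 genes became 881 with no filter and 90 to 739 without each library. For the co-culture effect in 3D minus 2D, 421 genes became 901 with no filter and 129 to 963 without each library; members called lower became 2 (with Tfr2) with no filter, with the DESeq2 Wald test and without either 3D-iHEA library, and members called higher 2 (with Tfrc) without 3D-iHEA replicate 1. In 2D-iHepSC against Fib, members called lower became 2 (with Slc11a2) with a filter of 5, DESeq2 size factors or only the 4 libraries compared. The cause was not tested. Labels number the libraries in each condition, but libraries of the same number did not deviate together (15 correlations from -0.124 to 0.137, 1 over 0.1), and apart from the count given above the block changed no call of a member. No block was fitted for 3D-iHEA against 2D-iHepSCiEC, for 3D-iHEA against 3D-iHA or for the co-culture effect in 3D minus 2D, since 1 library of 3D-iHEA has a number. For 3D against 2D the block was fitted on the libraries with a number. With 2 libraries a condition, few counts limit Hamp and Trf in the cultures.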
